A study of Mus musculus with 15 samples.

Results

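The respiratory chain and ATP synthase are followed here through 79 genes, out of 8228 tested, in 2 related mouse mammary carcinoma lines. The members are the genes whose annotated symbol begins with Ndufa, Ndufb, Ndufc, Ndufs, Ndufv, Sdha, Sdhb, Sdhc, Sdhd, Uqcr, Cox4, Cox5, Cox6, Cox7, Cox8 or Atp5. A probe was kept if its detection p was under 0.01 on at least 3 of 15 arrays, and the brightest probe stood for each symbol. On the array, 111 probes of 89 symbols matched the prefixes, so 79 symbols were kept and 10 were not. By textbook role the members fell into 14 subunits of the matrix arm and 18 of the membrane arm of complex I, 3 of complex II, 6 of complex III, 13 of complex IV and 15 of ATP synthase. The prefixes also took in 9 assembly factors and 1 annotated pseudogene, Ndufs5-ps, which are counted apart. Ndufa4, named for complex I, is counted with complex IV, where the protein is found.

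The 4T1 cells were stably transduced with lentiviral pLKO vectors carrying a scrambled control hairpin or either of 2 hairpins against TM4SF1, shTM4SF1-1 (hairpin 1) and shTM4SF1-5 (hairpin 5). For 4TO7, retroviral pBabepuro was used, either empty or expressing TM4SF1. All 5 groups were thus stably transduced lines, with 3 arrays each that the labels call biological replicates. The labels do not say that these came from separate cultures, so p-values measure the spread between these arrays, which may be technical. The stated questions were what changes on TM4SF1 knockdown in 4T1 and on its expression in 4TO7.

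The respiratory chain passes electrons from NADH through complex I, and from succinate through complex II, to ubiquinone. Complex III hands them to cytochrome c and complex IV passes them to oxygen, while complexes I, III and IV pump the protons that drive ATP synthase. Nuclear genes encode every subunit measured here, and assembly factors build the complexes without remaining in them.

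Across the arrays the mean raw signal was 222 to 418.6 and 9436 to 10703 probes were detected, and arrays of a group correlated at 0.9866 to 0.9947. The relative bead standard error of the members, as the median over members, was 4.25 to 5.72% per array. The targeted gene, Tm4sf1, had a mean log2 signal of 8.07 with scramble, and the log2 change was -1.13 with hairpin 1 (adjusted p = 0.000491) and -1.49 with hairpin 5 (adjusted p = 1.87e-05, limma). In 4TO7 it was 8.27 with the empty vector and 8.41 with TM4SF1 (adjusted p = 0.933, limma), so the direction of that comparison rests on the labels. Of the epithelial markers, 2 of 5 on the array passed the filter, Krt8 and Krt18, and their summed linear signal was 7811 to 8809 in 4T1 and 3332 to 3872 in 4TO7. Of the fibroblast markers, 2 of 5 passed, Pdgfra and Pdgfrb, with summed signals of 751 to 980 in 4T1 and 282 to 336 in 4TO7. The dimmer of the 2 had a mean log2 signal of 5.04 and the brighter 9.08, so the sums came mostly from 1 gene. On all 3 arrays of a group, 2 fibroblast markers were detected with hairpin 1 and 1 in each other group. None of the 3 leukocyte and 4 endothelial markers passed. The part of these levels in the differences between the lines was not tested, and in bulk RNA a change in the share of cells and a change in RNA per cell cannot be told apart.

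Hairpin 5 replicate 3 differed from the other hairpin 5 arrays. It held the lowest 4T1 value of 17 of 79 members, against 1 on each of the other hairpin 5 arrays. The hairpin 1 arrays held 7 to 14 and the scramble arrays 4 to 13. These counts were made for the members only, without a share over all genes. The Tm4sf1 signal of hairpin 5 replicate 3 was also the lowest of all arrays, 5.96. The mean raw signal of that array, 375.6, and its 10647 detected probes lay inside the range of the others. The counts of called members in the comparisons that use it are given with and without it.

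Most subunit genes were measured on every array. Of the 79 members, 76 were detected on all 15 arrays, Ndufab1 and Ndufaf3 on 14, and Cox7a1 on 9. The mean log2 signal of the members' probes ranged from 5.67 for Ndufaf3 to 13.58 for Atp5b, which encodes the catalytic beta subunit of ATP synthase. Brightness depends on the probe, so these signals do not rank the transcripts. Within the classes they ran from 10.06 (Ndufs8) to 11.51 (Ndufs6) in the matrix arm, from 5.76 (Ndufab1) to 11.89 (Ndufa13) in the membrane arm, and from 7.89 (Sdhd) to 10.25 (Sdhc) in complex II. In complex III they ran from 10.16 (Uqcrb) to 12.53 (Uqcr10), in complex IV from 5.76 (Cox7a1) to 12.42 (Ndufa4), in ATP synthase from 7.64 (Atp5o) to 13.58 (Atp5b), and among assembly factors from 5.67 (Ndufaf3) to 8.95 (Sdhaf4).

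The 10 symbols that were not kept were detected on 0 arrays, so no symbol lay near the threshold of 3 arrays. They include isoform genes with restricted tissue expression, namely Cox4i2, Cox6a2, Cox6b2, Cox7b2, Cox8b and Cox8c, while Cox4i1, Cox6a1, Cox6b1, Cox7b and Cox8a were detected on every array. The others were Atp5k, Ndufs1, Uqcrfs1 and Uqcrq. Ndufs1 and Uqcrfs1 encode iron-sulfur subunits that complexes I and III need, so an undetected probe does not show that a transcript was absent. Sdha, the flavoprotein of complex II, was not analysed here.

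Between the 2 lines the share of members called was near that of all genes. Calls went in both directions, more of them lower in 4TO7. Between the control arrays, empty-vector 4TO7 against scramble 4T1, 41 of 79 members passed an adjusted p of 0.05 in limma, which is 51.9% of the members beside 48.3% of all genes tested. Of these, 15 were higher in 4TO7 (19.0%, all genes 25.6%) and 26 were lower (32.9%, all genes 22.8%). With arrays scaled to their medians only, 6 were called, 3 in each direction. The share of all genes called with that scaling is not given here, so this fall cannot be read as particular to the members. The median log2 difference of the members was -0.063, beside 0.034 for all genes, and the median absolute difference was 0.227, beside 0.308. Every class with more than 3 subunits held members called in each direction. For 40 of the 41 called members the scramble and empty-vector arrays were fully separated, the exception being Ndufb6. Over all members the arrays were separated for 45 of 79 (57%), the same share as over all genes (57%). The vectors differ between the lines as well (pLKO and pBabepuro), so line and vector cannot be told apart here.

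**Figure D1:**
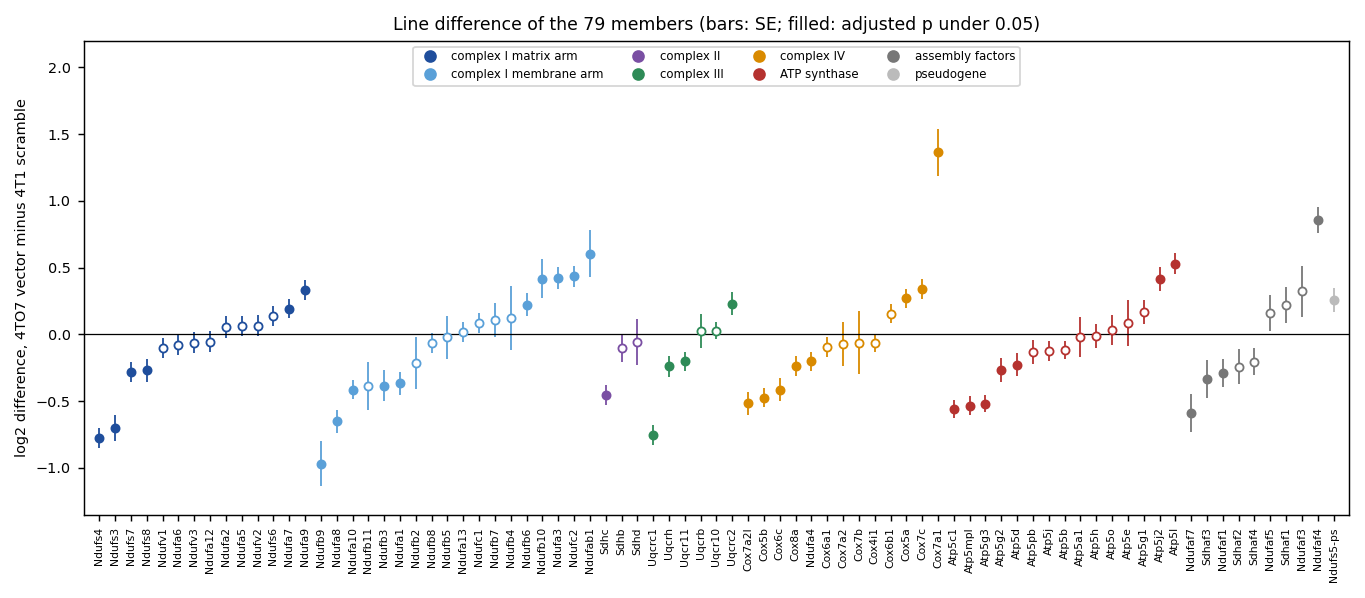
Log2 difference between empty-vector 4TO7 and scramble 4T1 for each of the 79 members, ordered within each class; points are limma estimates from 3 arrays a group, bars are their standard errors, and filled points passed an adjusted p of 0.05. Estimates run from -0.97 for Ndufb9 to 1.36 for Cox7a1, and filled points lie on both sides of 0 in complexes I, III and IV and in ATP synthase.

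In the matrix arm of complex I, which takes electrons from NADH, 2 members were higher and 4 lower in 4TO7. Ndufs4, an accessory subunit whose loss in humans causes Leigh syndrome, had log2 signals of 10.72, 10.88 and 10.86 on the scramble arrays and 10.05, 9.97 and 10.11 on the empty-vector 4TO7 arrays. The groups did not overlap, and Ndufs4 was lower in 4TO7 by 1.72-fold (log2 -0.78, SE 0.07, adjusted p = 1.45e-09, limma). The 3 other detected Ndufs4 probes gave -0.73, -0.80 and -0.73. Ndufs3, a core subunit of this arm, was 10.65, 10.44 and 10.57 with scramble and 9.82, 9.78 and 9.95 in 4TO7. That is 1.63-fold lower in 4TO7 with no overlap (log2 -0.70, adjusted p = 1.13e-06). The iron-sulfur core subunits Ndufs7 and Ndufs8 were lower by smaller amounts (-0.28 and -0.27, adjusted p = 0.00283 and 0.011). Ndufa9 and Ndufa7, accessory subunits, were higher (0.33 and 0.19, adjusted p = 0.000409 and 0.0261).

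The membrane arm, which pumps protons, held 5 members higher and 5 lower. Ndufb9, an accessory subunit, gave 10.61, 10.67 and 10.49 with scramble and 9.80, 9.62 and 9.43 in 4TO7. It was 1.96-fold lower in 4TO7 (log2 -0.97, SE 0.17, adjusted p = 2.88e-05), the most negative estimate among the members. Ndufa8, also accessory, read 11.33, 11.24 and 11.02 with scramble and 10.60, 10.62 and 10.41 in 4TO7, a 1.57-fold lower level (log2 -0.65, adjusted p = 4.56e-07). The groups of both genes did not overlap, and a second Ndufa8 probe gave -0.77. Ndufa10, Ndufb3 and Ndufa1 were lower too (-0.41, -0.38 and -0.37, adjusted p = 2.25e-05, 0.00749 and 0.00109).

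In the opposite direction Ndufc2 was 10.69, 10.57 and 10.56 with scramble and 11.05, 11.02 and 11.05 in 4TO7 (log2 0.43, SE 0.08, adjusted p = 4.92e-05). Ndufa3 (0.42, adjusted p = 0.000111) and Ndufb10 (0.42, adjusted p = 0.0176) were higher as well. Ndufab1, the mitochondrial acyl carrier protein, went from 5.72, 5.57 and 5.60 to 6.13, 6.39 and 6.19 (log2 0.61, SE 0.18, adjusted p = 0.0055), and 0.26 with no background correction. Ndufb6 passed with overlapping arrays (0.22, adjusted p = 0.0315), and its second probe gave 0.72.

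Among the 3 measured genes of complex II, Sdhc was lower in 4TO7. Sdhc encodes a membrane anchor that holds the haem and the quinone site together with Sdhd. Its signal was 10.61, 10.45 and 10.57 with scramble and 10.16, 10.11 and 10.01 in empty-vector 4TO7, without overlap (log2 -0.45, SE 0.08, adjusted p = 2.19e-05). Sdhb, the iron-sulfur subunit, and Sdhd were not called between the control arrays.

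Complex III held 1 member higher and 3 lower. Uqcrc1, a core protein, read 10.82, 10.86 and 10.86 with scramble against 10.02, 10.14 and 10.12 in 4TO7, and was 1.69-fold lower (log2 -0.75, SE 0.08, adjusted p = 4.41e-09). Its partner in the core, Uqcrc2, was 11.38, 11.36 and 11.22 with scramble and 11.51, 11.48 and 11.66 in 4TO7, and was higher (log2 0.23, SE 0.09, adjusted p = 0.0294). The groups overlapped for neither gene, and the estimates for the pair had opposite signs. The hinge protein gene Uqcrh and the small subunit gene Uqcr11 were lower (-0.24 and -0.20, adjusted p = 0.0157 and 0.0154).

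Complex IV held 3 members higher and 5 lower, and Cox7a1 had the largest estimate of all members at the background setting used here, a rank it lost to Ndufb9 with no background correction or an offset of 50. Cox7a1 encodes the heart and muscle form of subunit 7A, whereas Cox7a2 encodes the form found in most tissues. Cox7a1 gave 5.33, 5.11 and 4.97 on the scramble arrays, of which 1 was detected, and 6.28, 6.68 and 6.54 on the empty-vector 4TO7 arrays, all 3 detected. It was higher in 4TO7 by 2.57-fold (log2 1.36, SE 0.17, adjusted p = 2.9e-07), and the size moved with the background correction, being 0.55 on the log2 scale with none and 0.85 with an offset of 50. The scramble mean of 5.13 lay close to the 5.07 of hairpin 1, where no array was detected, and against the lowest detected signal of each scramble array the fold was 2.24. Over all groups it was detected on 3 of 9 4T1 arrays (1 with scramble, 0 with hairpin 1, 2 with hairpin 5) and on all 6 4TO7 arrays.

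Cox7a2 showed no called change, with 7.71, 7.34 and 7.72 against 7.50, 7.61 and 7.44. Cox7a2l, the related factor that joins complexes III and IV, was lower in 4TO7 (-0.52, SE 0.09, adjusted p = 1.69e-05). Of the 5A and 5B subunits, Cox5a was higher (0.27, adjusted p = 0.00284) and Cox5b lower (-0.47, adjusted p = 2.34e-06). Cox7c was higher (0.34, adjusted p = 0.000452), and Cox6c, Cox8a and Ndufa4 were lower (-0.41, -0.24 and -0.20, adjusted p = 0.00024, 0.00803 and 0.0149).

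ATP synthase held 2 members higher and 5 lower. Atp5l and Atp5j2, which encode the small membrane subunits g and f, were the ones that were higher. Atp5l was 10.85, 10.65 and 10.75 with scramble and 11.31, 11.30 and 11.22 in 4TO7, without overlap (log2 0.53, SE 0.08, adjusted p = 1.5e-06). Atp5j2 differed by 0.42 (SE 0.09, adjusted p = 0.000486).

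Among the members that were lower, Atp5c1 encodes the gamma subunit, the rotating shaft of the F1 head. It read 12.52, 12.59 and 12.52 with scramble and 11.95, 11.88 and 12.12 in 4TO7 (log2 -0.56, SE 0.07, adjusted p = 1.72e-07). Atp5mpl, a small membrane proteolipid, differed by -0.54 (adjusted p = 5.67e-07) and Atp5d, the delta subunit of F1, by -0.23 (adjusted p = 0.0342). Atp5b and Atp5a1, the beta and alpha subunits of the same head, were not called between the control arrays.

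The ring of c subunits comes from 3 genes that encode the same mature protein. Atp5g3 was 13.37, 13.30 and 13.17 with scramble and 12.77, 12.78 and 12.73 in 4TO7 (log2 -0.52, SE 0.07, adjusted p = 2.39e-07). Atp5g2 was lower by less (-0.27, adjusted p = 0.0169). Atp5g1 was not called between the control arrays, with 11.03, 11.03 and 11.13 against 11.17, 11.27 and 11.27. Differences among these probes were not tested against each other.

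Assembly factors moved both ways. Ndufaf4, a complex I assembly factor, was 8.13, 8.18 and 8.01 with scramble and 8.84, 9.11 and 8.95 in 4TO7, 1.81-fold higher without overlap (log2 0.86, SE 0.10, adjusted p = 3.26e-08). Ndufaf7, a methyltransferase that acts on a complex I subunit, went the other way, from 7.19, 7.31 and 7.35 to 6.87, 6.65 and 6.55 (log2 -0.59, SE 0.14, adjusted p = 0.00109). Ndufaf1 and Sdhaf3 were also lower (-0.29 and -0.33, adjusted p = 0.0234 and 0.0485). Ndufaf3, Ndufaf5, Sdhaf1, Sdhaf2 and Sdhaf4 were not called, and the pseudogene Ndufs5-ps was higher (0.26, adjusted p = 0.0207).

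**Figure D2:**
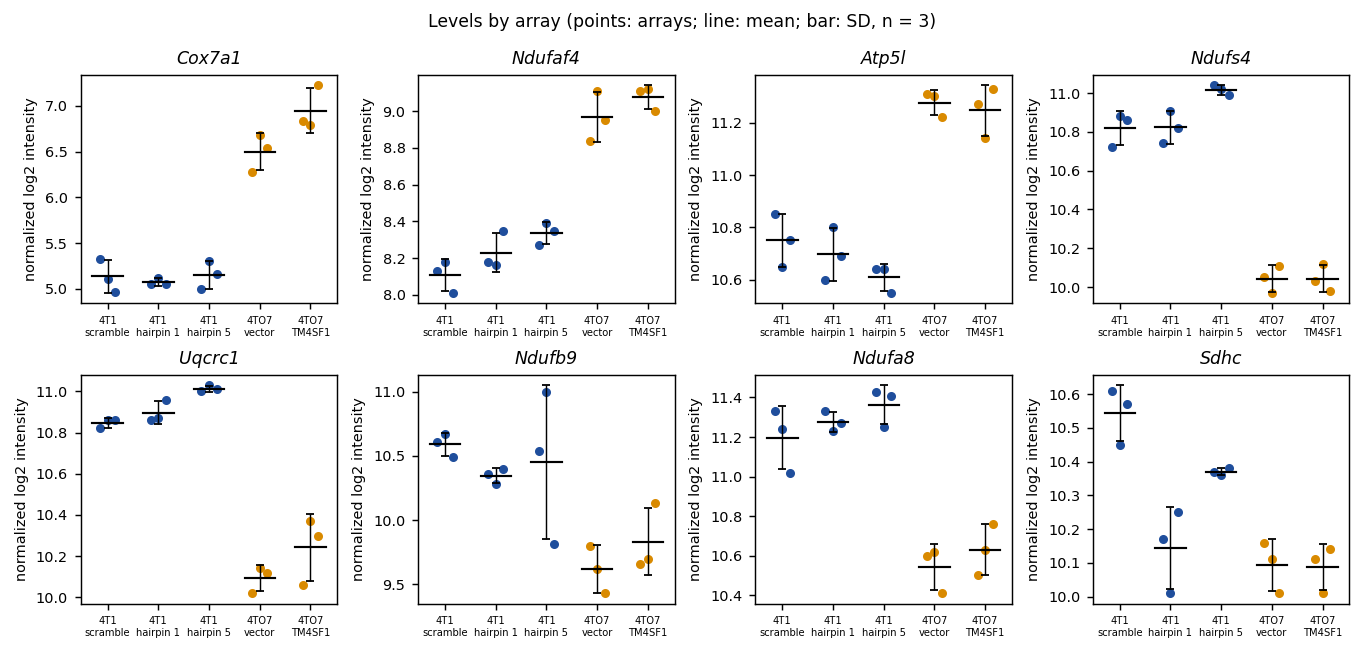
Normalized log2 signal of 8 members on each of the 15 arrays; points are arrays (blue for 4T1, orange for 4TO7), the line is the group mean and the bar its SD (n = 3). Cox7a1, Ndufaf4 and Atp5l lie higher in both 4TO7 groups than in all 4T1 groups, Ndufs4, Uqcrc1 and Ndufa8 lie lower, and the Ndufb9 points of hairpin 5 spread from 9.81 to 11.00.

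A few genes had a second probe that gave another size. For Atp5j, the F6 protein of the peripheral stalk, the probe used gave -0.12 and was not called, while a second detected probe gave -0.76 (adjusted p = 5.98e-07 over all probes). For Ndufc1 the second probe gave 0.23 (adjusted p = 0.0254 over all probes), and the one used was not called. In all, 16 further detected probes covered 12 members. Many of these genes have processed pseudogene copies, so each probe is taken as annotated.

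The same contrast of lines was also read from the means of other groups. TM4SF1 4TO7 against the mean of both hairpins in 4T1 shares no array with the group means of the control comparison. Its groups carry the perturbations, and it was added after seeing the data. In it 46 members were called (22 higher, 24 lower), 58.2% of the members beside 54.7% of all genes (28.1% higher and 26.6% lower). Without hairpin 5 replicate 3, 45 were called (20 higher, 25 lower), and the members' median went from 0.035 to -0.005. Both contrasts called 34 members in the same direction, 13 higher and 21 lower in 4TO7, which is 82.9% of the 41 and 73.9% of the 46, and 0 in opposite directions. These shares were 84.2% and 74.4% over all genes, and without hairpin 5 replicate 3 the members shared 33 calls (80.5% and 73.3%). Normalization and the variance of each gene were taken from all arrays together for both contrasts. The p-values and calls of the contrasts are therefore not independent. The sign was the same for 39 of the 41, and Atp5d and Ndufs8 were at 0.04 each. A test of the difference between the contrasts called 0 members in limma (6 at an unadjusted p under 0.05, lowest adjusted p = 0.269) and 49 of all genes.

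Some members had close values in both contrasts and others were nearer to 0 in the separate arrays. Cox7a1, detected on 2 of the 6 hairpin arrays, differed by 1.84 (3.30-fold against the lowest detected signal of each hairpin array), Ndufaf4 by 0.80 and Atp5l by 0.59. Ndufs4 differed by -0.88, Uqcrc1 by -0.71, Ndufa8 by -0.69 and Atp5c1 by -0.67, all past the threshold in limma. Estimates nearer to 0 than in the control arrays were those of Ndufb9 (-0.57, and -0.73 without hairpin 5 replicate 3), Ndufs3 (-0.42) and Sdhc (-0.17). These were called too, but Sdhc was not called without hairpin 5 replicate 3 (-0.16, adjusted p = 0.0515, limma). The control calls of Ndufaf7 (-0.17), Sdhaf3 (-0.12), Uqcr11 (-0.10), Uqcrc2 (0.12), Ndufb6 (0.14), Atp5d and Ndufs8 were absent from the separate arrays. Atp5b, Atp5g1 and Sdhd were among the members called only in the separate arrays. They differed by -0.30, 0.30 and 0.53 (adjusted p = 9.61e-05, 0.00216 and 0.00407, limma). Without hairpin 5 replicate 3 they were still called, at -0.33, 0.30 and 0.38.

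**Figure D3:**
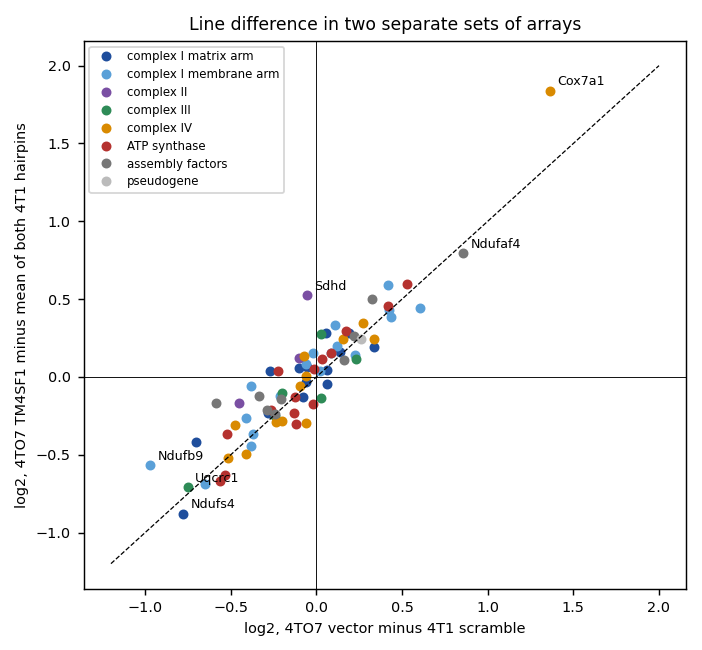
Line difference of each of the 79 members, in log2, from the control arrays (x axis, empty-vector 4TO7 minus scramble 4T1) and from separate arrays (y axis, TM4SF1 4TO7 minus the mean of both hairpins in 4T1); points are genes coloured by class and the dashed line marks equal values. Cox7a1 lies at 1.36 and 1.84 and Ndufs4 at -0.78 and -0.88.

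The promoters of 4 called members are shown as examples, 2 higher and 2 lower in 4TO7. Each is the 150 bases before the annotated start, 5′ to 3′ on the strand of the gene, from RefSeq with build GRCm38.p6. Capitals mark matches to the NRF1 motif GCGCANGCG on either strand. Among members called in both contrasts and with a sequence, Cox7a1, Ndufaf4 and Ndufs4 were taken by the size of the control difference. Ndufa8 was taken as the largest fall with an NRF1 match in these bases, so its matches reflect that choice. The windows are chr7:30184021-30184170 on the plus strand for Cox7a1, chr4:24897933-24898082 on the plus strand for Ndufaf4, chr13:114388095-114388244 on the minus strand for Ndufs4 and chr2:36049339-36049488 on the minus strand for Ndufa8.
Cox7a1: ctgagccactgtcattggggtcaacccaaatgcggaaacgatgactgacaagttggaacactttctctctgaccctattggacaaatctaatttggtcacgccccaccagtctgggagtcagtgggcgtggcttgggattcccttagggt
Ndufaf4: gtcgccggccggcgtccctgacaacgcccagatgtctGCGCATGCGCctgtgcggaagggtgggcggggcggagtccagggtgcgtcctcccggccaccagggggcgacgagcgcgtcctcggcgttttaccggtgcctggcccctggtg
Ndufs4: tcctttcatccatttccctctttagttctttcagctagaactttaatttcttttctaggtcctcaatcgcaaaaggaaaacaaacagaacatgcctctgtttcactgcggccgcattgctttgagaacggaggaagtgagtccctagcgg
Ndufa8: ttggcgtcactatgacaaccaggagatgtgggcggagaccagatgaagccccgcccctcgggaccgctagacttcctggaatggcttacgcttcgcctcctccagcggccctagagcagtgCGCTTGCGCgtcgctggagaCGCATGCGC
Ndufaf4 has overlapping matches that form a single palindrome, Ndufa8 has 2 separate matches, and the Cox7a1 and Ndufs4 stretches hold none.

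NRF1, nuclear respiratory factor 1, is a known activator of many respiratory chain genes, as are the ETS factor GABP, YY1 and ERR-alpha. In windows of 250 bases before to 50 after the start, 69 members had a RefSeq sequence and 9 had none. The NRF1 letters GCGCANGCG were in 20 of the 69 (29%), beside 9.63% of 17492 protein-coding genes. They were in 3 of 13 members higher in 4TO7, in 7 of 22 lower and in 10 of 34 not called. The YY1 letters AAGATGGCG were in 10.1% of members and 2.14% of all genes, and the ERR-alpha letters CAAGGTCA in 4.35% and 1.56%. The ETS letters CCGGAAGT were in 7.25% of members and 5.69% of all genes, with 0 of 13 members higher in 4TO7, 4 of 22 lower and 1 of 34 not called. Both strands were searched for each motif, and a match is a description of these letters and not a binding site.

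Knockdown of Tm4sf1 in 4T1 changed few of these genes. With hairpin 1, 1 of 79 members was called, Sdhc (1.27% of the members, beside 5.83% of all genes, of which 3.01% higher and 2.82% lower), and 9 had an unadjusted p under 0.05 (11.4%, all genes 18.4%). The median log2 change was -0.019 for the members and 0.002 for all genes. The Sdhc signal was 10.61, 10.45 and 10.57 with scramble and 10.17, 10.01 and 10.25 with hairpin 1. The groups did not overlap, and Sdhc was 1.32-fold lower (log2 -0.41, SE 0.08, adjusted p = 0.00166, limma). With hairpin 5 it was 10.37, 10.36 and 10.38, also below every scramble array, and the change of -0.18 was not called (adjusted p = 0.253). The scramble arrays are shared by both comparisons. Arrays were separated for 15.2% of members and 25.1% of all genes with hairpin 1, and for 24.1% and 20.8% with hairpin 5.

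No other complex II gene was called. Sdhd read 7.88, 7.99 and 8.03 with scramble, 7.58, 7.82 and 7.91 with hairpin 1, and 7.96, 7.80 and 6.99 with hairpin 5, where replicate 3 alone lay low. Sdhb was not called with either hairpin. Next to Sdhc in the hairpin 1 comparison came Uqcr10, a small complex III subunit, with 12.39, 12.47 and 12.46 against 12.59, 12.60 and 12.76. It did not overlap and narrowly missed the threshold (log2 0.21, adjusted p = 0.0519).

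With hairpin 5, 0 of 79 members were called in limma, beside 3.52% of all genes (1.34% higher and 2.19% lower), and 15 had an unadjusted p under 0.05 (19.0%, all genes 15.7%). The median log2 change was 0.037, beside 0.006 for all genes. Sdhd had the change of greatest size, -0.38 (adjusted p = 0.272), and -0.08 without hairpin 5 replicate 3. Without that array 1 member was called, the complex IV subunit Cox7b (log2 0.68, adjusted p = 0.0244), and the members' median was 0.072. Cox7b read 7.21, 6.91 and 7.10 with scramble and 7.85, 7.66 and 6.42 with hairpin 5.

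**Figure D4:**
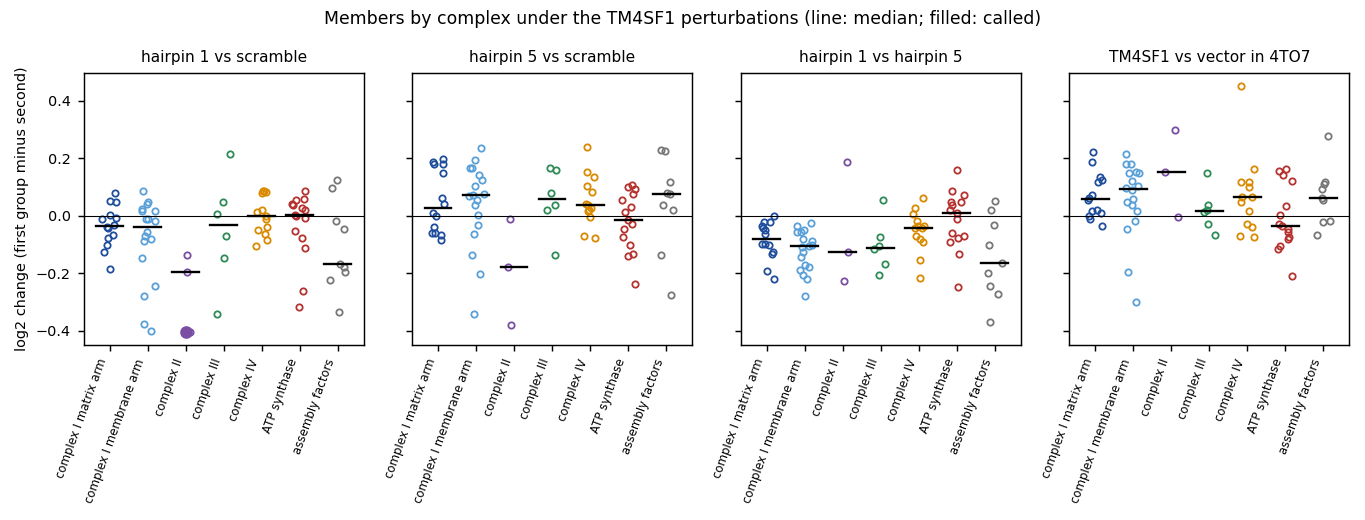
Log2 change of the members by class in the 4 perturbation comparisons; points are genes, the short line is the median of the class, and the filled point passed an adjusted p of 0.05 (Sdhc with hairpin 1). The pseudogene is not drawn. Cox7a1 lies at 0.45 with TM4SF1. For hairpin 1 against hairpin 5, 56 of the 69 subunits of the 5 complexes lie below 0, among them all 32 of complex I.

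Hairpin 1 against hairpin 5 called 0 of 79 members in limma, beside 1.86% of all genes (1.25% higher and 0.608% lower), and 11 members had an unadjusted p under 0.05 (13.9%, all genes 13.4%). Their median was -0.080, beside 0 for all genes, and -0.114 without hairpin 5 replicate 3. The estimate was lower with hairpin 1 for all 32 complex I subunits, from -0.28 to -0.002, whereas over all genes 4110 estimates were positive and 4118 negative. Most estimates were also negative in complexes II (2 of 3), III (5 of 6) and IV (10 of 13). So were 7 of 9 among assembly factors and 64 of all 79 members. In ATP synthase, 8 estimates were positive and 7 negative. Subunits of a complex were read on the same arrays and are not independent, and no test of the 32 as a group was made.

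The mean log2 level of the complex I subunits, relative to scramble, was -0.085, -0.066 and -0.043 on the hairpin 1 arrays. On the hairpin 5 arrays it was 0.114, 0.091 and -0.077. The groups overlapped, since hairpin 5 replicate 3 lay among the hairpin 1 arrays. The scramble arrays stood at 0.024, -0.041 and 0.017. Without hairpin 5 replicate 3, 29 of the 32 estimates were lower with hairpin 1, and Uqcrb, a small complex III subunit, was called (log2 -0.43, adjusted p = 0.0247). Without hairpin 5 replicate 2, 25 of the 32 were lower, and without hairpin 1 replicate 1, 26.

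Single complex I genes differed little between the hairpins. Ndufa13, an accessory subunit, read 11.69, 11.70 and 11.86 with hairpin 1 and 11.95, 11.89 and 12.07 with hairpin 5 (log2 -0.22, SE 0.08, adjusted p = 0.164). Ndufv2, which carries an iron-sulfur cluster near the NADH site, read 11.41, 11.35 and 11.38 against 11.65, 11.62 and 11.53 (log2 -0.22, adjusted p = 0.192). The arrays did not overlap for either gene, and neither passed the threshold. In this comparison arrays were separated for 15.2% of members and 17.1% of all genes. The largest estimate among the members was that of Ndufaf7 (-0.37, SE 0.14, adjusted p = 0.22).

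**Figure D5:**
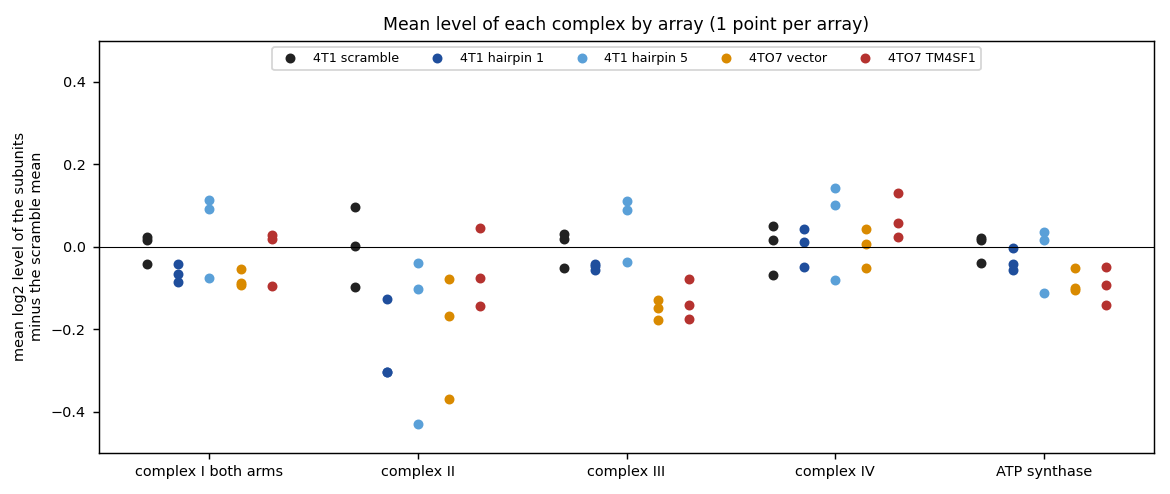
Mean log2 level of the subunits of each complex on each of the 15 arrays, minus the mean of the 3 scramble arrays; 1 point is 1 array, coloured by group. For complex I the hairpin 1 arrays lie between -0.085 and -0.043, and the hairpin 5 arrays at 0.114, 0.091 and -0.077. Complex III lies between -0.178 and -0.078 on the 6 4TO7 arrays. Between the control arrays 3 of its 6 estimates were positive and 3 negative, the lowest being that of Uqcrc1 (-0.75).

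In 4TO7, TM4SF1 against the empty vector called 0 of 79 members in limma, beside 0.0243% of all genes (2 genes), and 7 members had an unadjusted p under 0.05 (8.86%, all genes 7.22%). The median was 0.053, beside -0.001 for all genes. Cox7a1 had the estimate of greatest size, with 6.28, 6.68 and 6.54 on the empty-vector arrays and 6.83, 6.79 and 7.23 with TM4SF1. Its groups did not overlap, which held for 8.86% of members and 12.7% of all genes. The change of 0.45 (SE 0.17) was not called (adjusted p = 0.565, limma). In complex I, 25 of 32 estimates were positive, with a median of 0.067, and the mean level relative to scramble was -0.093, -0.089 and -0.055 with the empty vector and -0.096, 0.018 and 0.028 with TM4SF1, so the arrays overlapped.

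Genes around the respiratory chain were read from lists of textbook members, whose counts between the lines stand beside 25.6% of all genes called higher and 22.8% called lower. Of assembly factors outside the symbol prefixes, 28 were measured, and 4 were higher and 4 lower in empty-vector 4TO7 than in scramble 4T1 (28.6% called, all genes 48.3%), with a list median of -0.004. Foxred1, a complex I assembly factor, was lower (-0.96, SE 0.10, adjusted p = 1.2e-08), as were the complex IV factors Surf1 and Cox20 (-0.58 and -0.51, adjusted p = 0.00309 and 0.000225). Hccs, which attaches haem to cytochrome c, was higher (0.81, adjusted p = 7.64e-05). In the separate arrays 5 of the list were higher (17.9%) and 6 lower (21.4%), beside 28.1% and 26.6% of all genes. In the knockdowns Coa5, a complex IV assembly factor, was higher with hairpin 1 (0.31, adjusted p = 0.0241) and with hairpin 5 (0.37, adjusted p = 0.00988), against the same scramble arrays. Without hairpin 5 replicate 3 the latter was 0.36 (adjusted p = 0.0271, limma). In each knockdown Coa5 was 1 of 28 genes (3.57%), beside 3.01% of all genes called higher with hairpin 1 and 1.34% with hairpin 5.

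Of 15 electron carriers and quinone enzymes, 6 were higher (40%) and 2 lower (13.3%) in 4TO7, with a median of 0.245 beside 0.034 for all genes. Dhodh, the pyrimidine synthesis enzyme that reduces ubiquinone, was higher (0.83, SE 0.12, adjusted p = 2.94e-06), as were the ubiquinone synthesis genes Coq7 and Coq2 (0.39 and 0.38), while Coq5 was lower (-0.35). In the separate arrays 8 of the list were higher (53.3%) and 1 lower (6.67%), beside 28.1% and 26.6% of all genes. Of 15 citrate cycle and pyruvate dehydrogenase genes, 2 were higher and 2 lower (13.3% each), with a median of 0.142. In the separate arrays 8 of these 15 were higher and 2 lower, beside 28.1% and 26.6% of all genes. Pdha1, the alpha subunit of pyruvate dehydrogenase, was higher (0.94, SE 0.09, adjusted p = 5.4e-10) and its partner Pdhb lower (-0.36, adjusted p = 0.00894). Idh2 was higher and Idh3g lower (0.40 and -0.30). Neither list held a called gene in the knockdowns or with TM4SF1, except that without hairpin 5 replicate 3 the fumarase gene Fh1 was lower with hairpin 1 than with hairpin 5 (-0.30).

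Of 69 mitochondrial ribosomal protein genes, 18 were higher (26.1%, close to all genes) and 6 lower (8.70%) between the control arrays, with a median of 0.088. Mrps22, Mrps27 and Mrps12 were higher (1.01, 0.98 and 0.63) and Mrps5 lower (-0.90). In the separate arrays 27 were higher (39.1%) and 6 lower (8.70%), beside 28.1% and 26.6% of all genes. With hairpin 1, Mrpl10 and Mrps16 were lower (-0.35 and -0.32, adjusted p = 0.00747 and 0.0402, limma). With hairpin 5 Mrpl36 was lower (-0.31, adjusted p = 0.0405, and 0.0747 without hairpin 5 replicate 3, limma). These are 2.9% and 1.45% of the list, beside 2.82% and 2.19% of all genes called lower. Without hairpin 5 replicate 3, Mrpl20 was lower with hairpin 1 than with hairpin 5 (-0.41).

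Of 18 genes of mitochondrial biogenesis and mitochondrial DNA expression, 4 were higher (22.2%) and 2 lower (11.1%), with a median of 0.087. Ppargc1b, the coactivator PGC-1 beta, had a mean of 6.15 with scramble and was detected on no empty-vector 4TO7 array, so it was at least 1.83-fold lower there (adjusted p = 7.66e-07). Gabpb1, a subunit of the ETS factor GABP, was lower (-0.66, adjusted p = 0.00164), and the mitochondrial elongation factors Tufm and Gfm1 were higher (0.60 and 0.53). In the separate arrays 6 of the list were higher (33.3%) and 4 lower (22.2%), beside 28.1% and 26.6% of all genes.

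Of 6 genes for the ATP synthase inhibitor, carriers and porins, 1 was higher (16.7%) and 3 lower (50%), with a median of -0.183. Atpif1, the inhibitor, was lower (-0.34, adjusted p = 0.000536), as were the phosphate carrier Slc25a3 (-0.28) and the porin Vdac2 (-0.24), while Vdac3 was higher (0.33). In the separate arrays 0 of the list were higher and 4 lower (66.7%), beside 28.1% and 26.6% of all genes. Neither this list nor the biogenesis list held a called gene in the knockdowns or with TM4SF1. The array given here carried 0 probes annotated to subunits encoded by mitochondrial DNA.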

How the data were processed

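For 25697 probes the authors deposited unnormalized mean bead intensities and a detection p-value, per the file headers. GenomeStudio is named, without a version, in the submitters' processing notes. Samples were assigned to columns by name, with 0 columns of no sample. The authors' deposited table of normalized intensity served as an alternative. As judged from its values it was on a linear scale with array medians of 8.34 to 8.45 and was not centred. How it was made is not given in the sources.

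With limma 3.58.1 in R 4.3.3, intensities were background-corrected by normexp with controls inferred from the detection p-values, an offset of 16 was added, and quantile normalization and log2 followed. The detection filter (p under 0.01, 3 or more arrays) left 11109 probes and, with the brightest probe per symbol, 8228 genes, 652 of them unnamed probes. Symbols came from the platform annotation. All 15 arrays entered 1 model of group means with a mean-variance trend, p-values are two-sided, and Benjamini-Hochberg adjustment ran over all genes within each comparison. No exact permutation test was used, because with 3 against 3 its smallest p is 0.1. The number of arrays limits the precision, and the median standard error over all genes was 0.13. For a probe with no detected array in a group, the fold is a bound, from the lowest detected signal of each array or the probe's own value, whichever is higher.

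Members and lists were chosen with earlier results of these data known. Named were, in each comparison, up to 10 called members each way or else the member with the largest change, members called in 2 or more comparisons, the ends of each class, isoform pairs, assembly factors and up to 4 called genes of each related list. Uqcr10, Ndufa13, Ndufv2, Cox7b, Uqcrb and the smaller called members beyond 10 were chosen after their values were seen, as were Fh1 and Mrpl20. Alternatives were other background, offset, normalization, filter, probe, variance, weighting, brightness and replicate block settings and each array left out.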

Additional observations from a re-analysis of the deposited data

How the results depend on the processing

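Of the 41 members called between the control lines, 6 (Cox7a1, Ndufab1, Ndufaf4, Ndufb9, Ndufs4 and Uqcrc1) kept the call in every alternative of that comparison that measured them, 27 in all except median scaling, and 0 reversed. Sdhaf3 lost it most often, in 10 of 19. Counts of called members in this section stand without the share of all genes at each setting, so changes in them cannot be read as particular to the members. Median scaling called 6 members between the lines and 0 with hairpin 1. It moved the members' medians to -0.008 for the lines, -0.157 for hairpin 1, -0.158 for hairpin 1 against hairpin 5 and -0.105 for TM4SF1, while it moved the medians of all genes to 0.111, -0.121, -0.069 and -0.175. The cause was not tested.

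For hairpin 1, 2 members were called with detection on all arrays required and with array weights (Uqcr10 added), and 3 with only the arrays compared (Uqcrb and Ndufb9 added). Without scramble replicate 2, Ndufb10 was added (log2 -0.54), so leaving out arrays gave 1 to 2 calls. Without hairpin 5 replicate 3 the counts for hairpin 5 and for hairpin 1 against hairpin 5 went from 0 to 1, and other omissions left them at 0. Leaving out arrays gave 32 to 37 calls between the lines and 0 for TM4SF1. It moved the members' medians to between -0.102 and -0.026 for the lines, -0.052 and -0.013 for hairpin 1, 0.018 and 0.072 for hairpin 5, -0.114 and -0.044 for hairpin 1 against hairpin 5, and 0.029 and 0.066 for TM4SF1. In the separate arrays, chosen after seeing the data, the members' median was 0.035, and Atp5d and Ndufs8 were at 0.04 each instead of below 0.

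The labels do not say whether the replicate number pairs the samples. Over 30 pairs of same-numbered arrays the deviations correlated at -0.146 to 0.063, so no shared deviation was seen, which cannot exclude pairing. With the replicate block 40 members were called between the lines, 1 with hairpin 1 and 0 in each other perturbation comparison. A block for the BeadChip was not run, since the headers used here name no chip.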
